A study of Homo sapiens with 14 samples.

Results

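The replication-dependent histone genes supply the histones that package newly copied DNA. Their members were taken as every gene whose symbol in the 2 count tables begins with HIST1H, HIST2H, HIST3H or HIST4H. This gave 72 identifiers, carrying 70 symbols, of the 19726 identifiers in both tables together. By histone type they are 6 H1, 19 H2A, 18 H2B, 14 H3 and 15 H4 genes, and by cluster 55 HIST1, 13 HIST2, 3 HIST3 and 1 HIST4 genes. Of these, 67 are among the 17810 genes of one table, 70 are among the 19143 genes of the other, and 65 are in both. The symbols are the older ones that the files use, so HIST1H1D is now H1-3 and HIST1H3B is now H3C2.

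Total RNA depleted of ribosomal RNA was sequenced from 14 libraries of CHP-134, a human neuroblastoma line with amplified MYCN. In the first experiment, CHP-134 cells carried a lentiviral Tet-On cassette, were selected with G418, and made either EGFP (3 libraries) or OmoMYC (3 libraries) during 3 days in 1 µg/ml doxycycline. OmoMYC is a dominant-negative fragment of MYC that blocks the DNA binding of MYC family proteins, and EGFP is an inert fluorescent protein that served as the control. Each transgene sits in its own engineered line, so transgene and line cannot be told apart. In the second experiment, parental CHP-134 cells were given DMSO (4 libraries) or 500 nM dTAG47 (4 libraries) for 18 h. dTAG47 directs the cell's degradation machinery to proteins that bear a particular tag, and parental cells have no tagged protein, so this experiment is a control for the compound itself. Totals ran from 28060817 to 38358128 counts in the first table and from 40861430 to 53451641 in the second. Expression of the transgenes themselves was not analysed here. The 2 tables were made apart and are compared with each other only where stated.

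Most cell types make the core histones H2A, H2B, H3 and H4, and the linker histone H1, in bulk only during S phase, when DNA is copied. The genes lie in clusters, have no introns in their classical form, and end their mRNA not in a poly(A) tail but in a short conserved stem-loop. That stem-loop is bound by SLBP, and the U7 snRNP cuts the transcript just after it. Transcription is driven by NPAT, a target of cyclin E and CDK2, in nuclear bodies that form at the clusters. Because ribosomal depletion does not select for poly(A) tails, these transcripts are within reach of the libraries used here.

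The stem-loop is shown first, since it is the feature that separates these genes from the rest of the genome. Among the 67 members located in GENCODE on GRCh37, the sequence of hg19, all 67 have a 16-base stem-loop within 100 bases after the stop codon. Only 2 of 20108 other protein-coding genes, or 0.00995%, have one there, and they are H2AX and H3-7. The pattern searched allowed alternative letters at several positions. The stop codon was that of the shortest coding span for members and that of the longest coding sequence for other genes, so the searches were not quite alike. The stem-loop begins 22 to 67 bases after the stop codon, with a median of 35. Below, the stem-loop is in capitals with 5 flanking bases on each side. The members were picked to show each opening of the stem and the genes with the smallest and largest changes described later. Not every form of the 16 bases is shown.
HIST1H1D (chr6:26234445-26234460, minus strand): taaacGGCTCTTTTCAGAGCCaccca
HIST1H3B (chr6:26031825-26031840, minus strand): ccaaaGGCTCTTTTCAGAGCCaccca
HIST1H2BJ (chr6:27100100-27100115, minus strand): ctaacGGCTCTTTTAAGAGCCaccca
HIST1H2AK (chr6:27805663-27805678, minus strand): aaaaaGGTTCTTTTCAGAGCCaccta
HIST1H3E (chr6:26225824-26225839, plus strand): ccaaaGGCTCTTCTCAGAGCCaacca
HIST1H4D (chr6:26188943-26188958, minus strand): ccaacGGCCCTTTTCAGGGCCaccta
HIST1H4K (chr6:27798956-27798971, minus strand): caaaaGGCCCTTTTTAGGGCCcccac

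The first arm of the stem divides the members by type. All 14 located H4 genes open the stem with GGCCC, and 52 members open it with GGCTC. The 52 are every located H1, H2B and H3 gene and 16 of the 17 H2A genes. HIST1H2AK is the exception and opens it with GGTTC. Over the whole 16 bases, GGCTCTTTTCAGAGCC is the commonest form, in 39 members, followed by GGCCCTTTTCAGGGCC and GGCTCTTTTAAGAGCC in 9 members each and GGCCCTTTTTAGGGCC in 4.

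Promoters share other letters. The 250 bases before the start were searched on both strands in 69 RefSeq promoters (GRCh38.p14) of 65 members. TATAAA, the core of the TATA box, is in 66.7% of them, against 10.7% of all 35116 promoters. CCAAT, the motif that NF-Y binds, is in 85.5% of the member promoters and 32% of all promoters. It divides the types as well, since it is in every H1, H2A, H2B and H3 promoter and in 23.1% of the H4 promoters. ATTTGCAT, the octamer bound by POU2F1, is in 75.0% of the H2B promoters and 68.8% of the H2A promoters, in none of the H1 or H4 promoters, and in 1.63% of all. AAACACA is in all 6 H1 promoters, in no other member promoter, and in 4.82% of all. The E-box CACGTG, a motif of MYC and many other bHLH proteins, is in none of the 69 windows and in 6.34% of all windows, which says only that these 6 letters do not occur there.

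The 150 bases before the start are given on the gene's strand for 4 members, 1 for each of 4 types, with the matches to these motifs in capitals on either strand (ATTGG is CCAAT read from the other strand). Coordinates are GRCh38.p14.
HIST1H1D (chr6:26234988-26235137, minus strand): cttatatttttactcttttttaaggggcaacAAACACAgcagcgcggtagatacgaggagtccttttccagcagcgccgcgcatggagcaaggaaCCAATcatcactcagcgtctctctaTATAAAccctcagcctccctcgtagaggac
HIST1H3B (chr6:26032100-26032249, minus strand): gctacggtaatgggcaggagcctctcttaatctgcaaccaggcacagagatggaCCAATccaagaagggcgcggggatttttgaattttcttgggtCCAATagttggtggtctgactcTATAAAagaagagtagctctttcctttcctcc
HIST1H2BJ (chr6:27132796-27132945, minus strand): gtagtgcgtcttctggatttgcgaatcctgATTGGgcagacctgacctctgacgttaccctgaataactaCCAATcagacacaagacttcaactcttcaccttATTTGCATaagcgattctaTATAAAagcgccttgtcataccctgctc
HIST1H4D (chr6:26189113-26189262, minus strand): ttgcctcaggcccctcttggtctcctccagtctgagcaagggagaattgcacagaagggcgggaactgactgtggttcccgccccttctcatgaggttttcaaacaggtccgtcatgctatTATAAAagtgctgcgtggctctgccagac

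Histone transcripts of all 5 types were lower with OmoMYC than with EGFP. Summed over all listed members, histone genes took 1.04%, 1.17% and 1.02% of the counts in the 3 EGFP libraries and 0.753%, 0.725% and 0.752% in the 3 OmoMYC libraries. HIST2 genes had almost no counts or were not listed there, so they add almost nothing to these sums. In CPM (counts scaled to a common library size, after TMM), the sum was 10820 ± 794 with EGFP and 7396 ± 160 with OmoMYC (mean ± SD, n = 3 each), which is 31.6% less. These are bulk libraries, so fewer cells in S phase and less histone RNA per cell cannot be told apart. Of the 45 members with enough counts to test, 40 were lower at an FDR below 0.05 and none was higher (edgeR's quasi-likelihood test, Benjamini-Hochberg adjusted over 13803 genes). Over all tested genes, 25.7% were lower and 27.3% were higher. The fold change was below 0 on the log2 scale in 44 of the 45, against 48.9% of all tested genes, and 41 had EGFP and OmoMYC libraries that did not overlap, all lower with OmoMYC, against 30.3% of all tested genes. The median log2 fold change of the tested members was -0.53 and that of all tested genes was 0.01.

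**Figure D1:**
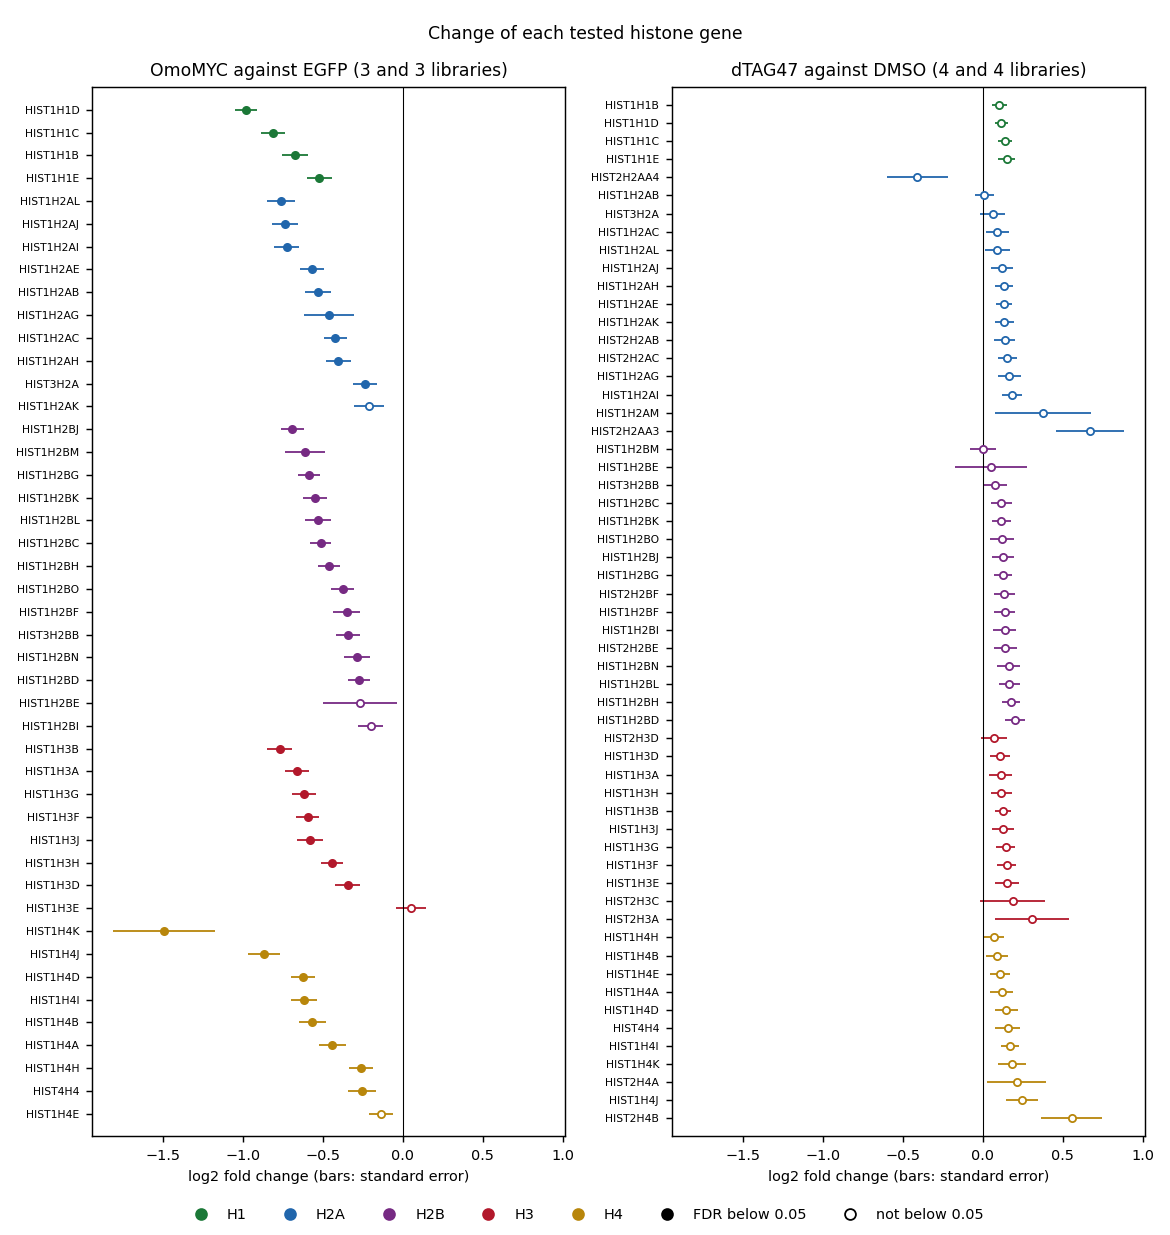
Log2 fold change of each tested histone gene in both experiments (x axis, log2 units; bars, standard error), 1 line per gene and coloured by histone type, with filled points for genes at an FDR below 0.05. With OmoMYC, 40 of 45 points are filled and lie left of 0; with dTAG47, none of 57 is filled and 56 lie right of 0.

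All 5 types moved the same way, and their sums did so by different amounts. The 6 listed H1 genes summed to 2633 ± 202 CPM with EGFP and 1633 ± 78.0 with OmoMYC, or 38.0% less. H3 fell by 34.2%, from 1865 ± 140 to 1227 ± 37.8 CPM. H2A fell by 30.6% (2047 ± 227 to 1421 ± 14.5 CPM), H2B by 27.5% (2840 ± 156 to 2059 ± 58.2 CPM) and H4 by 26.2% (1431 ± 83.9 to 1056 ± 47.8 CPM). In no type did the EGFP and OmoMYC libraries overlap. The makeup of the histone counts differed as well. H1 made up 24.0% to 24.6% of histone counts with EGFP and 21.4% to 23.1% with OmoMYC, while H4 went from 13.0% to 13.4% up to 14% to 14.7%, and H2B from 25.8% to 26.9% up to 27.3% to 28.2%. These sums are a description, with no test.

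**Figure D2:**
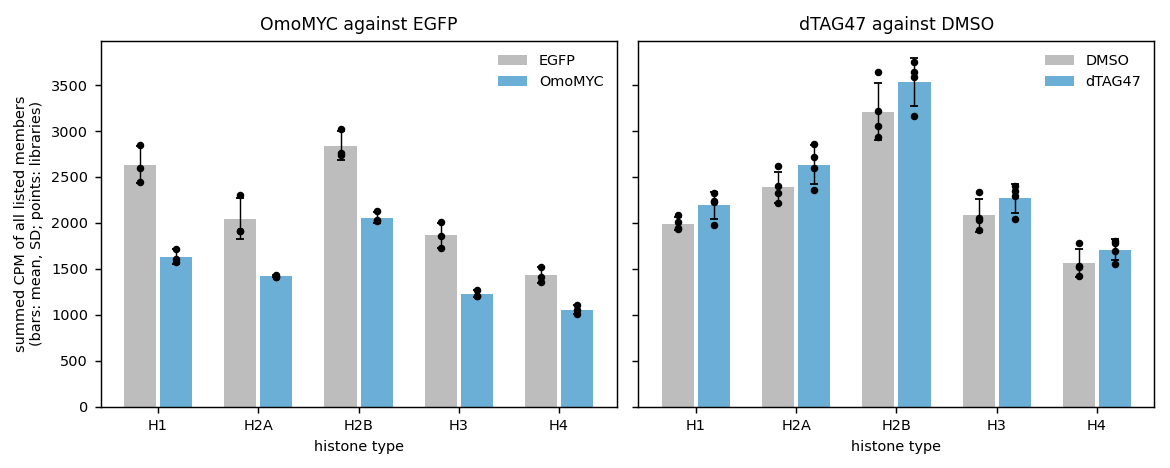
Summed CPM of all listed members of each histone type (y axis), with bars for the group mean, error bars for the SD and points for the libraries (3 per group at left, 4 per group at right). With OmoMYC every point lies below every EGFP point of its type, from 38.0% less for H1 to 26.2% less for H4; DMSO and dTAG47 points overlap in all 5 types.

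The linker histones had the largest drop in their sum. H1 binds where DNA enters and leaves the nucleosome and helps fold chromatin, and 4 of the 6 H1 genes had enough counts to test. All 4 were lower, with a median log2 fold change of -0.74. HIST1H1D had 208.5, 217.3 and 192.5 CPM in the EGFP libraries and 106.1, 101.4 and 105.5 CPM in the OmoMYC libraries. Its fitted level fell by 49.4%, and the fold change was the lowest of the type (log2 fold change -0.98 ± 0.07 SE, adjusted p = 2.26e-06). HIST1H1C, the H1 gene with the highest level per kb of exon (1117 CPM per kb over the 6 libraries), went from 1084, 1107 and 931.6 CPM to 581.1, 582.7 and 614.1 CPM (log2 fold change -0.81 ± 0.07, adjusted p = 1.41e-05). HIST1H1B had 397.7, 456.7 and 397.8 CPM with EGFP and 247.1, 250.7 and 286.0 CPM with OmoMYC (-0.68 ± 0.08, adjusted p = 8.84e-05). HIST1H1E, the next highest in level at 1044 CPM per kb, changed least of the 4, from 909, 1068 and 928.2 CPM to 673.9, 635.5 and 714.5 CPM (-0.52 ± 0.08, adjusted p = 0.000314). In each of the 4 genes the lowest EGFP library was above the highest OmoMYC library. HIST1H1A and HIST1H1T, a testis H1, were at 9 counts or fewer in every library and were not tested.

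H2A, which pairs with H2B in the nucleosome, had 9 of 10 tested genes lower, with a median of -0.50. HIST1H2AL had 32.91, 39.04 and 37.89 CPM with EGFP and 21.93, 20.94 and 21.97 CPM with OmoMYC, the lowest fold change of the type (-0.76 ± 0.09, adjusted p = 6.88e-05). HIST1H2AI went from 327.8, 331.8 and 280.6 CPM to 195.0, 181.3 and 192.2 CPM (-0.73 ± 0.08, adjusted p = 4.18e-05). HIST1H2AE went from 371.6, 432.6 and 367.7 CPM to 274.9, 261.2 and 255.3 CPM (-0.57, adjusted p = 0.000177). In these 3 genes the groups were well apart. HIST1H2AG, the H2A gene with the highest level per kb (718.1 CPM per kb), was more spread, at 348.1, 531.6 and 350.9 CPM with EGFP and 253.7, 318.4 and 321.3 CPM with OmoMYC. The second EGFP library stood above the other 2 there, the groups still did not overlap, and the gene was lower (-0.46 ± 0.15, adjusted p = 0.0273). That call was lost without EGFP replicate 1 (adjusted p = 0.11), EGFP replicate 2 (-0.26, adjusted p = 0.0901) or OmoMYC replicate 1 (adjusted p = 0.108). HIST1H2AK, the member with the GGTTC stem-loop, was the tested H2A gene that did not pass, at 52.34, 62.85 and 66.23 CPM with EGFP and 54.19, 49.75 and 52.56 CPM with OmoMYC (-0.21 ± 0.09, adjusted p = 0.0783), and its groups overlapped.

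Among the H2B genes, 12 of 14 were lower, with a median of -0.42. HIST1H2BJ had the lowest fold change, from 192.1, 180.5 and 172.7 CPM with EGFP to 112.7, 105.7 and 119.7 CPM with OmoMYC (-0.69 ± 0.07, adjusted p = 4.18e-05). HIST1H2BK, with the highest level of the type at 733.6 CPM per kb, went from 439.8, 454.8 and 399.1 CPM to 305.5, 269.6 and 310.1 CPM (-0.55, adjusted p = 0.000229). HIST1H2BH and HIST1H2BG, next in level at 632.7 and 625 CPM per kb, had log2 fold changes of -0.46 (adjusted p = 0.000391) and -0.58 (adjusted p = 8.35e-05). All 4 had groups that did not overlap. HIST1H2BI was at 67.96, 78.68 and 70.26 CPM with EGFP and 65.38, 63.79 and 59.4 CPM with OmoMYC, and HIST1H2BE was near 1 CPM in all 6 libraries. Neither passed the test (-0.20, adjusted p = 0.0552, and -0.27, adjusted p = 0.356).

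H3 and H4 form the central tetramer of the nucleosome. Of the H3 genes, 7 of 8 were lower, with a median of -0.59. HIST1H3B, whose level per kb was the highest of the type (1000 CPM per kb), also had the lowest fold change, from 676.6, 689.2 and 566.8 CPM with EGFP to 385.9, 378.2 and 370.7 CPM with OmoMYC (-0.77 ± 0.08, adjusted p = 3.14e-05). HIST1H3F went from 326.9, 358.1 and 314.4 CPM to 232.7, 214.0 and 215.0 CPM (-0.59, adjusted p = 8.44e-05), and HIST1H3D from 197.2, 238.8 and 208.4 CPM to 173.5, 166.7 and 167.4 CPM (-0.34, adjusted p = 0.00424). The 3 genes had groups that did not overlap. HIST1H3E was the single tested member with a positive value, at 14.2, 13.75 and 12.36 CPM with EGFP and 14.19, 14.14 and 13.39 CPM with OmoMYC. Its groups overlapped and it did not pass the test (0.05 ± 0.09, adjusted p = 0.678). The value was negative, -0.04, without EGFP replicate 3 (adjusted p = 0.755). HIST1H3E also has an annotated exon length of 2679 bases, against 511 for HIST1H3B, and a stem-loop that differs from the common form within the loop. Any link of either to its fold change was not tested.

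Of the H4 genes, 8 of 9 were lower, with a median of -0.57. HIST1H4D went from 318.5, 327.7 and 293.5 CPM to 220.3, 193.3 and 196.9 CPM (-0.62, adjusted p = 8.38e-05) and HIST1H4I from 319.4, 361.4 and 309.6 CPM to 219.3, 197.7 and 228.1 CPM (-0.62, adjusted p = 0.000146). HIST1H4E, with the highest level of the type at 783 CPM per kb, was the tested H4 gene that did not pass, at 326.8, 373.2 and 312.8 CPM with EGFP and 318.9, 301.8 and 302.2 CPM with OmoMYC (-0.13 ± 0.08, adjusted p = 0.158). Whether it differed from the other H4 genes was not tested. HIST1H4K had the lowest fold change of any member, -1.49 ± 0.32 (adjusted p = 0.00288), from 16.18, 15.69 and 40.81 CPM to 8.868, 8.461 and 8.519 CPM. The third EGFP library was far above the other 2. Without it the log2 fold change was -0.92 (adjusted p = 5.23e-06), and without EGFP replicate 1 it was -1.73 and no longer passed (adjusted p = 0.057). HIST1H4J, whose coding sequence is identical to that of HIST1H4K, had -0.87 ± 0.10 (adjusted p = 6.53e-05), and how the counting shared reads between the 2 genes is not given in the sources used here.

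**Figure D3:**
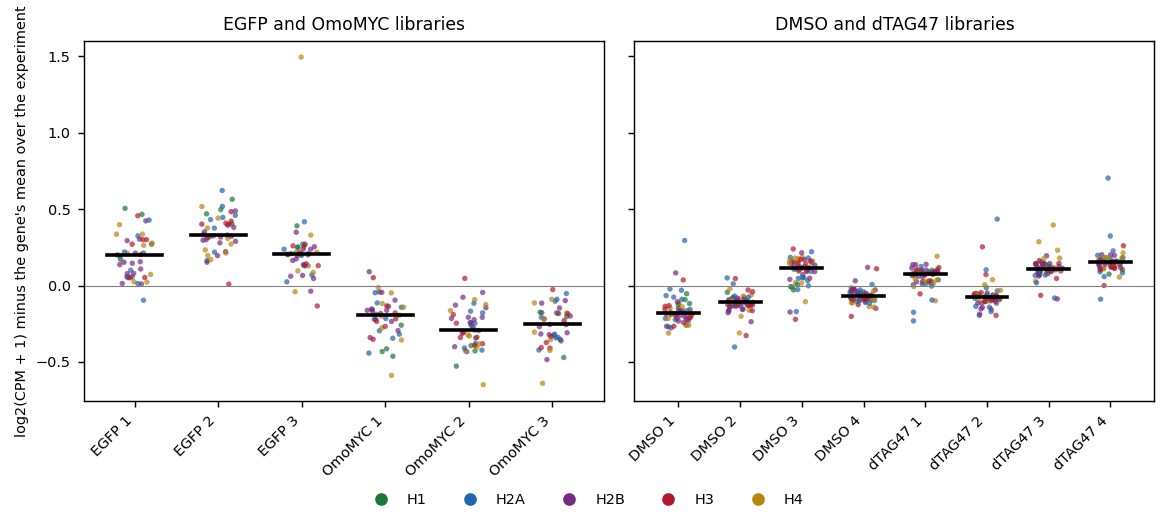
For each library (x axis), the deviation of every tested histone gene from its own mean over the experiment (y axis, log2 of CPM + 1), with each point a gene, coloured by histone type, and lines for the medians. The EGFP libraries have medians of 0.20, 0.33 and 0.20 and the OmoMYC libraries -0.19, -0.29 and -0.25, with HIST1H4K far above the rest in EGFP replicate 3; in parental cells DMSO replicate 3 (0.11) is above the other DMSO libraries and dTAG47 replicate 2 (-0.08) is below the other dTAG47 libraries.

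Most tested genes were lower in both blocks of the large cluster. HIST1 genes lie in 2 blocks of chromosome 6. Of the located and tested genes, 18 of 22 were lower in the block with starts from 25.72 to 26.28 Mb (hg19). In the block from 27.09 to 27.86 Mb, 17 of 18 were lower, and the medians were -0.52 and -0.60. HIST1H2BF (-0.35, adjusted p = 0.00593) and HIST1H2BG (-0.58, adjusted p = 8.35e-05) were also lower but were not located, so neither block counts them. The 3 tested HIST3 and HIST4 genes, on other chromosomes, were all lower with a median of -0.25, but leaving out single libraries ended the calls of 2 of them. HIST4H4 was at 15.59, 17.08 and 15.74 CPM with EGFP and 13.54, 13.47 and 13.58 CPM with OmoMYC (-0.25, adjusted p = 0.0297). That call was lost without EGFP replicate 2 and without any one of the OmoMYC libraries, and the call of HIST3H2A (-0.23, adjusted p = 0.0235) without the same EGFP library and without OmoMYC replicate 1 or 2. HIST3H2BB was lower throughout (-0.34, adjusted p = 0.00351).

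Many H2A and H2B genes stand head to head, so that 1 stretch of DNA holds both promoters. Among the 67 located members there are 12 histone pairs whose starts face apart within 1000 bases, 170 to 979 bases from each other. HIST1H2BF and HIST1H2BG were not located and so are in none of them. Their RefSeq promoters overlap those of HIST1H2AD and HIST1H2AE on the other strand. HIST1H2BG and HIST1H2AE had log2 fold changes of -0.58 and -0.57. HIST1H2BJ and HIST1H2AG, 248 bases apart, had log2 fold changes of -0.69 and -0.46. HIST1H2BL and HIST1H2AI, 244 bases apart, had -0.53 and -0.73, and HIST1H2AJ and HIST1H2BM, 245 bases apart, had -0.74 and -0.61. HIST1H2AK and HIST1H2BN, 170 bases apart, had the smallest changes of the HIST1 pairs with both genes tested, at -0.21 (adjusted p = 0.0783) and -0.28 (adjusted p = 0.0133). The call of HIST1H2BN was lost without EGFP replicate 2 (adjusted p = 0.0548). Whether partners resembled each other more than other members did was not tested.

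A few histone genes are known to make polyadenylated mRNA as well, in differentiated cells among others. Of the 6 listed, 5 were tested and all 5 were lower with OmoMYC, with a median of -0.42, against -0.53 for the other 40 tested members, of which 35 were lower. HIST1H1C and HIST1H2BK are given above. HIST1H2AC went from 220.8, 257.2 and 237.3 CPM to 180.6, 171.7 and 181.7 CPM (-0.42, adjusted p = 0.00079), a call lost with a correction for length and GC (-0.18, adjusted p = 0.275). HIST1H2BD went from 201.5, 208.6 and 190.6 CPM to 176.4, 164.5 and 156.3 CPM (-0.27, adjusted p = 0.00813). The libraries do not tell the 2 kinds of transcript apart. HIST2H2BE, the sixth, is not in the EGFP and OmoMYC table.

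The HIST2 cluster on chromosome 1 could not be compared between EGFP and OmoMYC. In parental cells HIST2H2BE had 14176 to 21885 counts per library, HIST2H2AC 16593 to 24187 and HIST2H2AB 4054 to 5502, and none of these 3 is listed in the EGFP and OmoMYC table. HIST2H2BF (12791 to 18549 counts in parental cells) had 1 to 13 counts there, and HIST2H3D (9538 to 14495) had 0 to 5. Neighbouring genes were low as well. Of 18 genes with at least 10 CPM in DMSO, from POLR3C to PRPF3, 17 were under 0.1 of their DMSO level in EGFP or not listed. The 18 are 5 histone genes and 13 others, of which NBPF20 (10.7 CPM in DMSO, 2.08 in EGFP) was the exception. SV2A, for example, had 4141 to 5588 counts in parental cells and 0 to 2 with EGFP or OmoMYC. As the stretch was ended at its last low gene, by that choice none of the next 22 genes, from RPRD2 on, was so low. Over all 9550 genes at this level, 408 (4.27%) were, of which 188 are not listed. Among the other 44 histone genes at this level, the ratio of EGFP to DMSO was between 0.672 and 2.3. Both EGFP and OmoMYC libraries share these low values. Of the 13 other genes, 9 carry another identifier under the same symbol in the EGFP and OmoMYC table, with 0 to 231 counts per library there (83 to 231 for SV2A). None of the 5 histone genes does, although HIST2H2AA3 is listed under different identifiers in the 2 tables. The cause was not tested.

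**Figure D4:**
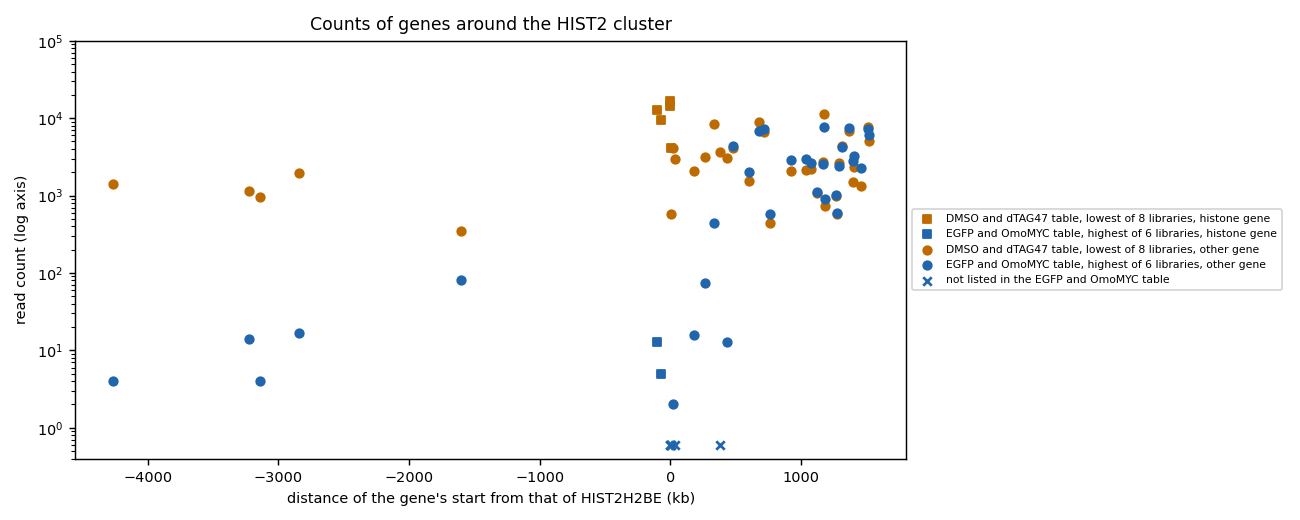
Read counts (y axis, log scale) of genes by the distance of their start from that of HIST2H2BE (x axis, kb), as the lowest of 8 DMSO and dTAG47 libraries (orange) and the highest of 6 EGFP and OmoMYC libraries (blue), with squares for histone genes, circles for other genes and crosses at the bottom for genes not listed in the EGFP and OmoMYC table. Up to PRPF3 the blue points lie far below the orange ones, histone genes included, and from RPRD2 on they lie at about the same height. The edge was set at PRPF3 as the last low gene.

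Of the 67 listed members, 22 were not tested with OmoMYC. Of these, 10 had at most 3 counts in all 6 libraries and 9 in 1 group only. HIST1H4C, HIST1H3C and HIST1H3I were among the low ones, at 0 to 4 counts in each of the 6 libraries, as were HIST1H2AA, HIST1H2AD, HIST1H2BA, HIST1H2BB, HIST1H4F and HIST1H4G at 0 to 5. HIST1H4L is listed only in the parental table, at 0 to 4 counts. HIST2H4A and HIST2H4B had 0 counts in all 6 libraries, and both entries of HIST2H2AA4, together with HIST2H2AA3 and HIST2H3A, had 0 to 4. No fold is given where both groups were this low.

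Beyond the histone genes themselves, the genes that make, cut and carry histones were counted from lists of known genes. For transcription and 3′ end processing of histone mRNA, 16 of 34 genes were lower and 3 were higher, with a median of -0.12. The shares over all tested genes, for this list and those that follow, are 25.7% lower and 27.3% higher. CASP8AP2, a partner of NPAT, was not analysed here. NPAT, the activator, went from 70.8 ± 6.14 CPM with EGFP to 54.4 ± 5.31 with OmoMYC (mean ± SD, n = 3; log2 fold change -0.38, adjusted p = 0.00649 by edgeR). SLBP, which binds the stem-loop, went from 118 ± 3.96 to 89.2 ± 2.64 CPM (-0.40, adjusted p = 0.000644). LSM11, a U7 snRNP protein, went from 38.3 ± 0.786 to 23.9 ± 0.738 CPM (-0.68, adjusted p = 4.94e-05), while its partner LSM10 did not pass (0.05, adjusted p = 0.63). ZNF473, also of the U7 snRNP, fell by 0.36 on the log2 scale (adjusted p = 0.00362), as did ERI1, an exonuclease that trims histone mRNA, by 0.58 (adjusted p = 0.00167). The 3 genes that rose were HINFP, a transcription factor of H4 genes (34.5 ± 3.42 to 43.0 ± 0.633 CPM, log2 fold change 0.32, adjusted p = 0.0107), CRAMP1L (0.38, adjusted p = 0.00375) and UPF1, an RNA helicase used in histone mRNA decay (160 ± 18.1 to 317 ± 11 CPM, 0.98, adjusted p = 8.62e-06).

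Some histones are also made outside S phase. Of 11 tested genes for replication-independent variants, 5 were lower and 1 was higher, with a median of -0.19. CENPA, the centromere H3, fell by 0.72 on the log2 scale (48.0 ± 3.00 to 29.2 ± 1.65 CPM, adjusted p = 6.53e-05) and H2AFZ, which encodes H2A.Z, by 0.68 (276 ± 56.2 to 172 ± 9.78 CPM, adjusted p = 0.00106). H2AFX, whose transcript has a stem-loop like that of the members, fell by 0.32 (391 ± 47.2 to 314 ± 16.9 CPM, adjusted p = 0.0125). The 2 genes for H3.3 differed in call, with H3F3A lower (-0.37, adjusted p = 0.00331) and H3F3B at 1120 ± 110 and 1010 ± 37.8 CPM (-0.15, adjusted p = 0.119), and that difference was not tested. H1FX fell by 0.22 on the log2 scale (adjusted p = 0.03). H1F0, the linker histone typical of resting and differentiated cells, rose from 108 ± 12.6 to 186 ± 7.71 CPM (0.79, adjusted p = 5.67e-05), the opposite direction to the 4 tested replication-dependent H1 genes.

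Histone chaperones, which carry new histones to chromatin, had 17 of 28 tested entries lower and none higher, with a median of -0.34. ASF1A fell by 0.64 on the log2 scale (adjusted p = 0.000643), ASF1B by 0.31 (adjusted p = 0.00805), CHAF1B by 0.38 (adjusted p = 0.00238) and NASP, a chaperone of soluble H3 and H4, by 0.43 (415 ± 13.7 to 309 ± 2.37 CPM, adjusted p = 0.000205). CHAF1A (-0.23, adjusted p = 0.0762) and HIRA (-0.07, adjusted p = 0.736), which serves H3.3, did not pass. Of 2 entries each for ATRX, DAXX and ANP32E, 1 was at or under 3 counts with EGFP. With OmoMYC both entries of DAXX were at or under 3 counts. The other ANP32E entry, in the low stretch around HIST2 at 150 to 440 counts, is among the 17 and has the lowest value of the list (-1.17, adjusted p = 5.89e-05). DNA replication genes moved with the histone genes, with 31 of 40 lower, none higher and a median of -0.35. Their summed level was 6513 to 6769 CPM in the EGFP libraries and 5143 to 5237 CPM in the OmoMYC libraries. The part of the number of cells in S phase in the histone result was not tested.

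Cell type markers and library makeup were compared too. Of 12 markers of adrenergic neuroblastoma, 2 were lower and 6 higher, where 25.7% of all genes were lower and 27.3% higher, and all 12 were above the floor of 3 counts. Their sum overlapped, at 4078 to 4912 CPM with EGFP and 4098 to 4347 CPM with OmoMYC. Of 9 tested mesenchymal or fibroblast markers, 3 were lower and 3 higher, and the 10 listed summed to 375.4 to 388.2 CPM with EGFP and 295.4 to 319.5 CPM with OmoMYC, of which TWIST1 held 283 and 211 CPM on average. LUM and COL3A1 were under 1 CPM in both groups. Mitochondrial genes took 2.54% to 3.36% of counts with EGFP and 4.15% to 4.53% with OmoMYC. The part of either in the histone result was not tested.

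**Figure D5:**
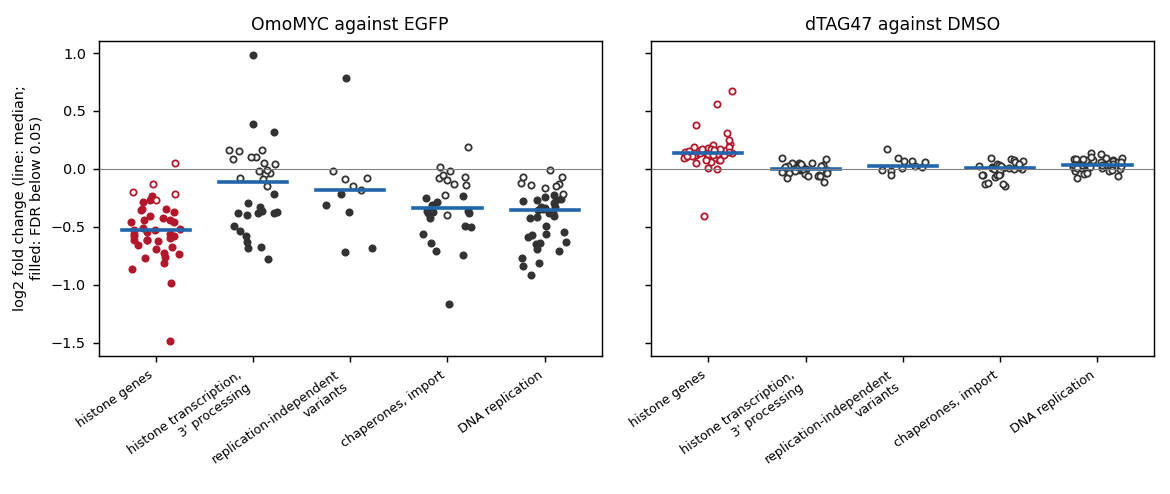
Log2 fold change (y axis) of each tested gene in the histone genes (red) and the lists of histone transcription and 3′ processing, variants, chaperones and DNA replication (black), for both experiments; lines are medians and filled points have an FDR below 0.05. With OmoMYC the histone genes have the lowest median of the 5 groups plotted, -0.53; with dTAG47 their median is 0.14 and the other 4 lie between 0.00 and 0.04.

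In parental cells, 18 h of dTAG47 left no histone gene past the threshold, while nearly all of them had slightly higher values. Of 57 tested members, edgeR called none (over all 14470 tested genes, 0.117% were higher and 0.0415% lower), and so did DESeq2 and limma-voom. Of the 57, 23 had an unadjusted p below 0.05, all of them with positive values, against 3.88% of all genes that were so on the higher side. The log2 fold change was above 0 in 56 of the 57, compared with 49.2% of all tested genes, with a median of 0.14 against 0.00 for all genes. The groups did not overlap in 2 members, HIST1H1D and HIST2H4B, where 1.87% of all genes were higher without overlap. Members share libraries and vary together, so 56 genes on one side are not 56 independent results.

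Values above 0 were found in every type. Median log2 fold changes were 0.13 for each of H1, H2A, H2B and H3 and 0.16 for H4. The sum over all members was 11240 ± 877 CPM with DMSO and 12340 ± 884 with dTAG47 (mean ± SD, n = 4 each), 9.79% more, and the libraries ran from 10420 to 12460 and from 11090 to 13130 CPM, so that the groups overlapped. Histone genes took 1.05%, 1.08%, 1.25% and 1.13% of counts in DMSO replicates 1 to 4 and 1.23%, 1.12%, 1.27% and 1.30% in dTAG47 replicates 1 to 4. DMSO replicate 3 was thus above dTAG47 replicates 1 and 2.

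Values of single genes follow. HIST1H1D had 146.0, 147.0, 148.6 and 140.9 CPM with DMSO and 162.5, 150.1, 159.2 and 159.7 CPM with dTAG47 (log2 fold change 0.12 ± 0.04, adjusted p = 0.673). HIST1H1C had 752.6, 769.6, 824.5 and 781.6 CPM with DMSO and 875.6, 789.7, 870.6 and 913.7 CPM with dTAG47 (0.14 ± 0.05, adjusted p = 0.623). HIST1H3B had 592, 620.1, 679 and 627 CPM with DMSO and 698.4, 625.6, 707.8 and 716.5 CPM with dTAG47 (0.13 ± 0.05, adjusted p = 0.673). In all 3 genes dTAG47 replicate 2 was the lowest of its group. HIST1H2AG had 405, 367.1, 403.9 and 382.3 CPM with DMSO and 429.1, 374.2, 431.5 and 515.2 CPM with dTAG47 (0.17, adjusted p = 0.673). HIST1H4I had 322.5, 347.9, 378.9 and 365.3 CPM and then 384.5, 360.1, 424.3 and 424.5 CPM (0.17, adjusted p = 0.673), and the polyadenylated HIST1H2BD had 203, 212.1, 244.6 and 209.7 CPM and then 242.3, 225, 266.5 and 267.7 CPM (0.20 ± 0.06, adjusted p = 0.579). Here too dTAG47 replicate 2 was the lowest of its group, and these groups overlapped. HIST2H2BE, measurable in these libraries, had 306.3, 335.4, 403.3 and 363.7 CPM with DMSO and 386.6, 345.3, 400.6 and 422.7 CPM with dTAG47 (0.14 ± 0.07, adjusted p = 0.673).

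The members at the ends of the range are pairs of near copies at low level. HIST2H2AA3 had 2.052, 1.763, 2.244 and 2.522 CPM with DMSO and 2.234, 3.935, 2.449 and 4.945 CPM with dTAG47, the highest fold change (0.67 ± 0.21, adjusted p = 0.608). HIST2H2AA4, identical to it in coding sequence, had 1.491, 0.9347, 1.366 and 0.9895 CPM and then 0.7291, 0.8725, 1.055 and 0.9079 CPM, the lowest (-0.41 ± 0.19, adjusted p = 0.673). The pair thus had values of opposite sign, at 31 to 256 counts per library. HIST2H4B had 0.7346, 1.062, 1 and 0.9895 CPM and then 1.458, 1.077, 1.832 and 1.236 CPM (0.56 ± 0.19, adjusted p = 0.673), and its coding sequence is identical to that of HIST2H4A. HIST1H2BM, next lowest after HIST2H2AA4, was at 0.00 (adjusted p = 0.994). The other identical pairs are HIST1H4J with HIST1H4K and HIST2H3A with HIST2H3C, and values within each pair are uncertain for the same reason.

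The count of calls in parental cells depends on how the replicates are treated. The labels give no batch, but earlier results of these data set replicates 1 and 2 apart from 3 and 4. With a factor for that split, 19 members were higher (2.58% of all genes) and none lower, with a median of 0.14. Within replicates 3 and 4 alone 21 were higher (2.93% of all genes), and within replicates 1 and 2 alone none was (0.0276% of all genes). Without dTAG47 replicate 2, 4 were higher (0.358% of all genes). They were HIST1H1C (0.18, adjusted p = 0.0401), HIST1H1E (0.21), HIST1H2BD (0.25) and HIST1H2BH (0.22). In the fit with no such factor, where no histone gene was called, no gene of the other lists was called either. Values were above 0 for 19 of 35 tested genes of histone transcription and processing (median 0.00), 8 of 11 variants (0.02), 16 of 29 chaperones (0.01) and 34 of 41 DNA replication genes (0.04). Differences between these lists and the histone genes were not tested. NPAT (-0.04, adjusted p = 0.857), SLBP (0.02, adjusted p = 0.91) and H1F0 (0.02, adjusted p = 0.876) were among the genes not called. Replication genes summed to 6156 to 6191 CPM with DMSO and 6097 to 6533 CPM with dTAG47.

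Of the 70 listed members, 13 were not tested with dTAG47, 3 of them at or under 3 counts in all 8 libraries and 4 in 1 group only. A single library stood out among them. HIST1H4C had 10, 5, 3 and 8 counts with DMSO and 3, 28, 6 and 3 with dTAG47, HIST1H3C had 3, 3, 4 and 3 and then 4, 32, 4 and 8, and HIST1H3I had 0, 1, 1 and 2 and then 1, 21, 3 and 2. In all 3 genes dTAG47 replicate 2 was the highest of the 8 libraries.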

How the data were processed

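The 14 RNA-seq libraries are EGFP and OmoMYC (3 each) and, in parental CHP-134 cells, DMSO and dTAG47 (4 each). The deposited tables hold raw counts per gene, which the authors made with Cutadapt, STAR (hg19) and FeatureCounts, without normalization. The annotation, strandedness and treatment of reads that map to several genes are not given in the sources used here, so near-identical or overlapping histone genes may share reads. The study calls its replicates biological. Members, lists and tests were chosen with earlier results of these data known, and no pattern shown here is independent support for those results.

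Each table was fitted whole and apart from the other, in R 4.3.3, after edgeR's filterByExpr with TMM scaling (edgeR 4.0.16). Groups were compared with the robust quasi-likelihood test, with Benjamini-Hochberg adjustment over all tested genes and an FDR of 0.05. That fit gave the log2 fold changes with their standard errors, and CPM values use TMM-scaled totals. Figures use log2 of CPM plus 1. A level per kb is CPM divided by the annotated exon length in kb. A group was taken to be at the floor when each of its libraries had at most 3 counts, and counting error is the only error this covers. DESeq2 1.42.0, limma-voom (limma 3.58.1), other scalings and filters, a length and GC correction, a replicate block, and fits without each library were alternatives.

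Genes named in the text are, for each type, the 3 highest in level per kb over the 6 EGFP and OmoMYC libraries and the tested members with the lowest and highest fold change there, the 2 lowest and 2 highest with dTAG47, members listed as making polyadenylated mRNA, members at the floor in a group, and a fixed set from the lists. Others (HIST1H2AJ, HIST1H2BF, HIST1H2BL, HIST1H2BM, HIST1H2BN, HIST1H4J, HIST3H2A, HIST3H2BB, CRAMP1L, UPF1 and genes near HIST2) were named after their values were seen. Stem-loops were read from GRCh37 with GENCODE v44 annotation lifted to it, where 67 of 72 members were located, and promoters from RefSeq (GRCh38.p14). Whether replicate numbers pair the samples is not known, and the main fits treat the samples as unpaired. Over all genes, same-numbered libraries had deviations from their group means that correlated at 0.076, -0.07 and 0.293 in the OmoMYC experiment. In parental cells these values were 0.009 to 0.159. Over histone members only, they were 0.145, 0.265 and -0.016 in the OmoMYC experiment and -0.147 to 0.571 in parental cells. Such correlations cannot settle whether samples are paired.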

Additional observations from a re-analysis of the deposited data

Results flagged for a closer look

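Groups of 4 libraries were searched for 1 library apart from the other 3. Its gap to the nearest library, as a share of the group's range, had to be above the 95% critical value of Dixon's test for 4 samples. This held for 13 of 152 combinations of a group with a gene, a summed type or the share of a type. Such gaps turn up by chance in about 1 of 20 groups. The 13 are all single genes, none a sum or a share, and come from 2 libraries.

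DMSO replicate 3 was high in 4 genes. Its gap was 0.882 of the range for HIST3H2A (84.84 CPM against 69.02 to 70.89), 0.914 for HIST1H4A (81.72 against 66.5 to 67.81), 0.859 for HIST1H4K (18.22 against 14.11 to 14.69) and 0.832 for HIST1H3C, where the counts were only 3 to 4. dTAG47 replicate 2 was low in 6 genes. The gap was 0.86 for HIST1H1B (263.4 CPM against 293.6 to 298.5), 0.947 for HIST1H2BL (156.3 against 182.9 to 184.4), 0.839 for HIST3H2BB (117.9 against 138.8 to 142.8), 0.853 for HIST1H3E (11.4 against 12.68 to 12.9), 0.926 for HIST1H3J (163.6 against 184.9 to 186.6) and 0.866 for HIST1H2BN (114.9 against 136.8 to 140.2).

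The same library was high in 3 genes at low count. The gap was 0.901 for HIST1H3I (21 counts against 1 to 3), 0.854 for HIST1H3C (32 against 4 to 8) and 0.867 for HIST1H4C (28 against 3 to 6).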

How the results depend on the processing

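With OmoMYC, 33 of the 40 calls held under every alternative run and 7 were lost under at least 1 (HIST1H4H, HIST1H2AC, HIST1H2AG, HIST4H4, HIST1H2BN, HIST3H2A and HIST1H4K). The length and GC correction ended those of HIST1H4H, HIST1H2AC, HIST1H2AG, HIST4H4 and HIST1H2BN. The number lower was 35 to 42 when libraries were left out one at a time and 38 to 42 otherwise, and the median log2 fold change -0.58 to -0.49 when they were left out, -0.46 with no filter on low counts and -0.64 with a correction for length and GC. That correction gave 38 lower (35 of the 40 shared) and moved the calls over all genes to 5421 lower and 3046 higher, from 3545 and 3766. The number higher was 0 to 1 when libraries were left out, the 1 being HIST1H2AM (4 to 14 counts) without EGFP replicate 3. With no filter HIST2H2BF (1 to 13 counts) also passed. HIST1H3E ran from -0.0392 to 0.0752 over the fits that leave out a library.

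With dTAG47, the number higher was 20 with the replicate block (2.11% of all genes) and 1 with the length and GC correction (HIST1H4I). It was 0 to 4 when libraries were left out (0.358% of all genes without dTAG47 replicate 2). It was 19 with the factor for replicates 1 and 2 against 3 and 4 (2.58% of all genes). Within replicates 3 and 4 alone it was 21 (2.93% of all genes). The median was 0.10 to 0.20 when libraries were left out. Members near 0 changed sign. HIST1H2BM was at -0.0001 with DESeq2, -0.0002 with RLE factors, -0.0082 by library size, -0.0181 with the length and GC correction, -0.0387 within replicates 3 and 4, and -0.0519 to 0.0811 when libraries were left out. HIST1H2AB was at 0.0000 by library size, -0.0163 with that correction, -0.0472 within replicates 1 and 2, and -0.0175 to 0.0585 when libraries were left out. HIST1H2BE was at -0.0649 and HIST2H3D at -0.0081 within replicates 1 and 2, and HIST2H3C at -0.1658 within replicates 3 and 4. When libraries were left out, HIST1H2BE ran from -0.1087 to 0.1705 and HIST2H3D from -0.0056 to 0.1456.

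Since it is not known whether replicate numbers pair the samples, the replicate block is given in this section only. With OmoMYC it gave 41 lower (28% of all tested genes were lower with it), 39 of them among the 40, and a median of -0.53. HIST1H4K was lost there (edgeR adjusted p = 0.0969). The parental median with the block was 0.14. Low counts keep 22 and 13 listed members out of the 2 tests.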
